A study of Homo sapiens with 2 samples.

Results

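The genes described here encode RONIN (THAP11), HCF-1 (HCFC1) and 8 of their relatives and partners: HCFC2, ZNF143, ZNF76, OGT, SETD1A, KMT2A, ASH2L and WDR5. They were taken by name from the annotated peak table of an mTOR chromatin immunoprecipitation and sequencing (ChIP-seq) experiment, as rows assigned to one of the 10 genes or rows lying inside one and assigned to a neighbour. This gave 6 of the 21440 peaks in the table, among 19970 protein-coding genes on chromosomes 1 to 22 and X. Both libraries came from MDA-MB-231 cells, an established line of human breast cancer of the triple-negative kind, grown with serum and antibiotics and given no further treatment per the labels. There was 1 library enriched with an antibody against mTOR and 1 input library, which served as the reference for calling peaks. Neither had a replicate, so no difference between peaks has a replicate check, and intervals below cover counting error only. Because the table holds no read counts, the depth behind each peak is unknown. An expression or copy number file was not used here, so the cell line label was not checked against markers and a gene without a peak is not shown to lack mTOR.

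RONIN is a DNA-binding protein with a THAP zinc finger domain, and it recruits HCF-1, a large chromatin adaptor that does not itself bind DNA in a sequence-specific way. ZNF143 and its paralogue ZNF76 are zinc finger activators, and ZNF143 reads a promoter element that RONIN also occupies. HCF-1 links such factors to histone H3 lysine 4 methyltransferases and to OGT, the enzyme that adds O-linked GlcNAc to proteins and also cleaves HCF-1 to its mature form. The series asks how PML, mTOR and RONIN, in one nuclear complex, bear on ribosomal gene expression and senescence. The peaks below show where the mTOR antibody library was called enriched over input at the genes of the RONIN and HCF-1 machinery itself.

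Peaks covered the starts of all 3 DNA-binding factors, of OGT and of both methyltransferases. No peak overlapped the genes of the HCF proteins or of the core subunits ASH2L and WDR5, as was so for 67.0% of all protein-coding genes. Of the 10 genes, 5 (50%, exact Clopper-Pearson 95% interval 18.7 to 81.3%) had an assigned peak within 1 kb of the start site, against 15.5% of all protein-coding genes. The same 5 genes were the ones named as nearest gene of any peak, against 41.7% of all protein-coding genes. With 10 genes this interval is wide. The sixth peak, over the start of ZNF143, was assigned by the authors to an antisense gene.

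The sequences just before the starts are shown first, because each of the peaks over THAP11, ZNF143, OGT, SETD1A and KMT2A covered its stretch from end to end, while HCFC2 is the contrast with no peak. They are the 250 bases upstream of the start in the RefSeq promoter table (GRCh38.p14), which held 7 of the 10 genes. Capitals mark exact matches to the motifs described further on: ETS, Sp1, CCAAT, NRF1, E-box and the core ACTACA.

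THAP11, chr16:67842070-67842319, plus strand: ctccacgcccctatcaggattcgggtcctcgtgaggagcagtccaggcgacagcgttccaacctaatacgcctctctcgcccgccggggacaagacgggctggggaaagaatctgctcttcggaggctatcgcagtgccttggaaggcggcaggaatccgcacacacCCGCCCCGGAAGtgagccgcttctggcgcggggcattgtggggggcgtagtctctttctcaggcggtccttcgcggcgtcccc

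ZNF143, chr11:9460762-9461011, plus strand: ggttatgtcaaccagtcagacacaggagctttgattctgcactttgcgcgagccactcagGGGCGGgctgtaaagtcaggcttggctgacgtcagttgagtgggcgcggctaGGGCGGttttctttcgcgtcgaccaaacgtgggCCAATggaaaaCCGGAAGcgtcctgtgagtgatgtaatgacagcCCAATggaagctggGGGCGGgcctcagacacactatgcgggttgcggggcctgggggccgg

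OGT, chrX:71532854-71533103, plus strand: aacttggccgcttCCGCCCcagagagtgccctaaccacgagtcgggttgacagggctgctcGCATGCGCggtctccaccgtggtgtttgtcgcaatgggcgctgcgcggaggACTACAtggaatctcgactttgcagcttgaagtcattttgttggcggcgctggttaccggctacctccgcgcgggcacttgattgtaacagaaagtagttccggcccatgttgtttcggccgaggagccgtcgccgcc

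SETD1A, chr16:30957504-30957753, plus strand: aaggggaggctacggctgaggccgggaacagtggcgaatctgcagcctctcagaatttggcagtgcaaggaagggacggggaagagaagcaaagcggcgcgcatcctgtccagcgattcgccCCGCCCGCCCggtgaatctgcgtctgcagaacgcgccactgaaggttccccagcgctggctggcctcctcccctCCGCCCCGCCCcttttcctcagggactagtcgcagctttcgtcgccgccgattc

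KMT2A, chr11:118436242-118436491, plus strand: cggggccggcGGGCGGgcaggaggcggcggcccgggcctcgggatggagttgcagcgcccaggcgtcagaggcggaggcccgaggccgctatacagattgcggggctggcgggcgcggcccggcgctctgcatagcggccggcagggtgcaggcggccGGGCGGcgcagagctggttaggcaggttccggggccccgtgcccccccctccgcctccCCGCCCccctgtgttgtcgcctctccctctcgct

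HCFC2, chr12:104064281-104064530, plus strand: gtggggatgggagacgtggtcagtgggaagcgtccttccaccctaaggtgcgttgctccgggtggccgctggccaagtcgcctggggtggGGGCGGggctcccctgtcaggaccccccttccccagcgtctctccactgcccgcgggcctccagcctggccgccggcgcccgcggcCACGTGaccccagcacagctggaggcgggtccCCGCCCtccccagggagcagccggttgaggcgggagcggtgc

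Among the DNA-binding factors, THAP11 had the lowest score of the 6, on a peak that covered its start. It lay at chromosome 16, 67841880 to 67842735 on hg38, in promoter-TSS, the deposited class for peaks at a start site, and was 856 bp wide with its centre 13 bp upstream of the start (offset -13 bp). Its score of 80, the authors' value with no stated scale, ranked 7338 of 21440 peaks. THAP11 is a short gene, and the peak reached 416 bp into it, 22.2% of its 1876 bp span. The whole gene sits inside the span of CENPT, a kinetochore gene on the opposite strand, and a separate peak (score 77) at the promoter of NUTF2, a nuclear transport factor gene, began 3.96 kb further on.

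ZNF76 had a peak of score 164 at chromosome 6, 35259453 to 35260022, which was 570 bp wide and classed as promoter-TSS. Its deposited offset was 2 bp from one of the gene's start sites. In the gene table used here the ZNF76 span begins further upstream, so the same centre lay 204.5 bp inside it. The start of the opposite-strand non-coding gene SCUBE3-AS1, at 35259455, fell at the upstream edge of this peak.

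ZNF143 was the one gene whose peak carried another gene's name. A peak of score 156 at chromosome 11, 9460578 to 9461076, 499 bp wide and of class promoter-TSS, was assigned to LOC644656, the current ZNF143-AS1, with an offset of -129 bp. ZNF143 begins at 9461012 and its antisense gene at 9460698 on the other strand, so the peak spanned both starts and reached 65 bp into ZNF143. Its centre lay 185 bp upstream of the ZNF143 start. Peaks over a start without the gene's own promoter label were not rare: of 2321 protein-coding genes with a peak over a RefSeq promoter, 364 (15.7%) had no assigned promoter peak within 1 kb. How many of these have a divergent neighbour was not counted. To which of ZNF143 and its antisense gene this peak belongs cannot be told apart from its position.

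**Figure D1:**
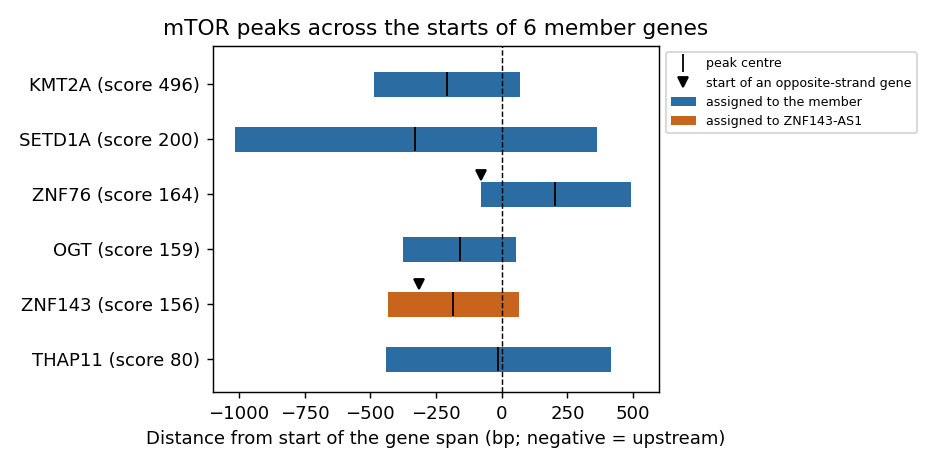
Bars give the extent of each peak in bp from the start of the member's gene span, negative being upstream; ticks mark peak centres and triangles the starts of opposite-strand genes. All 6 bars cross the start, and the ZNF76 bar alone has its centre inside the gene, at 204.5 bp.

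The methyltransferase genes held the top 2 scores, and OGT lay beside ZNF76 and ZNF143. KMT2A, which encodes the histone H3 lysine 4 methyltransferase MLL1, had the top peak, of score 496, at chromosome 11, 118436006 to 118436559. It was 554 bp wide, in the promoter-TSS class, centred at -208 bp, and ranked 416 of 21440 among all peaks and 64 of 3334 among promoter peaks of protein-coding genes. SETD1A, the catalytic subunit of a SET1 complex that binds HCF-1, had a score of 200 at chromosome 16, 30956738 to 30958114. This promoter-TSS peak was centred at -328 bp and, at 1377 bp, was the widest of the 6, wider than 97.6% of promoter peaks. OGT had a score of 159 at chromosome X, 71532730 to 71533159, in the promoter-TSS class, 430 bp wide and centred at -160 bp.

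The KMT2A peak stayed extreme whatever it was set against, whereas the ranks of SETD1A and THAP11 depended on width. Among the 2144 peaks nearest in width, KMT2A exceeded 99.4%, OGT 91.8%, ZNF143 84.9% and ZNF76 80.2%. SETD1A exceeded 54.5% of peaks as wide as its own, against 89.99% of all peaks, and THAP11 exceeded 31.8% against 65.4%. The median score was 126 among peaks as wide as that of THAP11 and 179 among those as wide as that of SETD1A. The median score of the 5 assigned peaks was 164, against 54 over 3334 promoter peaks and 61 over all peaks.

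**Figure D2:**
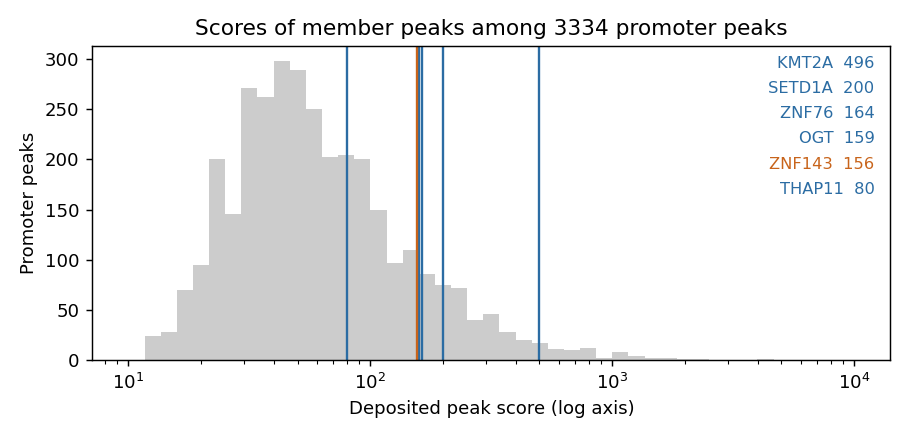
The histogram counts the 3334 promoter peaks of protein-coding genes by deposited score on a log axis, and vertical lines mark the 6 peaks at the member genes, orange for the one assigned to ZNF143-AS1. Lines for ZNF76, OGT and ZNF143 fall together at 156 to 164, THAP11 lies at 80, and KMT2A stands in the right tail at 496.

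Each of the 5 genes with an assigned peak had exactly 1, as did 55.8% of the 3096 protein-coding genes with a promoter peak. The peaks stood alone to different degrees. Nothing else was called within 100 kb of OGT, whose neighbours on either side lay 350.3 and 643.0 kb away. The nearest other peak was 11.97 kb from that of SETD1A, in an intron and assigned to ORAI3, and 34.5 kb from that of KMT2A, at the promoter of ATP5MG. The peaks beside ZNF76 and ZNF143 were 70.8 and 96.0 kb off.

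OGT and HCFC1 both lie on the X chromosome, where promoter peaks were rare. Of 848 protein-coding genes there, 19 had one (2.24%, exact 95% interval 1.35 to 3.48%), against 3077 of 19122 on autosomes (16.1%, 15.6 to 16.6%). Peaks of any kind were also few on X, 143 against 637 to 1279 on the other chromosomes that hold members. The OGT peak ranked 4 among the 19 X promoter peaks and 14 among all 143 peaks of that chromosome. How many copies of the X chromosome this line carries was not tested. On the other chromosomes the share of genes with a promoter peak was 20.5% on 16 (THAP11, SETD1A), 16.6% on 11 (KMT2A, ZNF143) and 13.9% on 6 (ZNF76). It was 15.7% on 12 (HCFC2), 13.2% on 8 (ASH2L) and 11.3% on 9 (WDR5).

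The 4 genes without an overlapping peak differed in how far the nearest one was. HCFC1 (chromosome X, 153947557 to 153971818) was 71.7 kb from the nearest peak, which scored 454 and was assigned to the adhesion gene L1CAM, in intron 2, 886 bp wide, at an offset of 499 bp. HCFC2, the smaller paralogue of HCF-1 (chromosome 12, 104064531 to 104106524), was 24.3 kb from a peak of score 80 and 431 bp, in an L1PA6 element of a GLT8D2 intron. ASH2L, a subunit shared by the H3 lysine 4 methyltransferase complexes (chromosome 8, 38105493 to 38140080), was 75.5 kb from an intergenic peak of score 97 and 580 bp, assigned to DDHD2 at -15666 bp.

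WDR5 (chromosome 9, 134135199 to 134159968), the scaffold subunit of the same complexes, came closest. A peak of score 97 and 1642 bp began 3.27 kb beyond the end of the gene. It belonged to the TTS class, for transcript ends, and was assigned to RNU6ATAC, the small nuclear RNA gene of the minor spliceosome, at an offset of 508 bp. For comparison, 13376 protein-coding genes (67.0%) had no peak in their span, and these lay at a median of 38.4 kb from the nearest one (quartiles 12.1 and 105.7 kb). Only 9.97% of them were nearer than WDR5, while HCFC1, HCFC2 and ASH2L fell between the quartiles.

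Further genes of the same complexes, taken from a list of 54 partners in 5 groups, carried promoter peaks in 18 cases (33.3%, exact 95% interval 21.1 to 47.5%), against 15.5% of all protein-coding genes. This list was chosen with earlier results of these data known, and the interval covers counting error only. The share was 6 of 15 among SET1 and MLL subunits, 5 of 10 among BAP1 and OGT partners, 4 of 15 among HCF-1-binding factors, 2 of 8 in the SIN3 and HDAC complex and 1 of 6 in the NSL acetyltransferase complex. Their top peaks had a median score of 69, from 17 to 335, so all but 2 of the 18 scored lower than SETD1A. The median over all protein-coding genes with a promoter peak was 58.

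In the SET1 and MLL group the peaks were those of KMT2B (118), NCOA6 (94), PSIP1 (69), MEN1 (67), RBBP5 (56) and SETD1B (49), the numbers being deposited scores. The NCOA6 peak was deposited as intronic, at an offset of 1059 bp. KMT2B and SETD1B are the paralogues of KMT2A and SETD1A, and their scores lay below those of the members. The SETD1B peak (chromosome 12, 121803625 to 121804156, offset -834 bp) lay inside the gene span, which begins at 121790155. A separate peak of score 54, at 121790122 to 121790402, crossed that span start and was assigned to RHOF. MEN1 encodes menin and PSIP1 encodes LEDGF, which together tether MLL1 to chromatin. A peak of score 136 over the upstream end of KMT2D, another MLL family gene, was deposited as intergenic at -5455 bp and is not counted among the 6. It covered 49060488 to 49061070 on chromosome 12, and the KMT2D span of the gene table ends at 49060794.

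Among BAP1 and OGT partners, promoter peaks were at FOXK1 (score 91), FOXK2 (69), ASXL1 (51), OGA (32) and TET3 (21). A peak of score 2420 inside the FOXK2 span (82592311 to 82593985) was deposited as intronic and assigned to WDR45B. OGA encodes the hydrolase that removes the sugar added by OGT, so both enzymes of this cycle had a promoter peak, at 32 and 159. BAP1, a deubiquitinase that binds HCF-1, had none, and its gene lay 113.0 kb from the nearest peak. HDAC2 (335) and GABPB1 (213), a subunit of the ETS factor GABP, had the highest promoter peak scores of the partners, while HDAC1 (17) had the lowest. The other HCF-1-binding factors with a peak were ZBTB17 (87), HCFC1R1 (69) and E2F3 (53), and PHF20 (157) was alone in the NSL group. The ZBTB17 peak was deposited as intronic, at an offset of 162 bp. RBBP4 is a further gene under a neighbour's name: a peak of score 109 over its start was assigned to ZBTB8OS.

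The other proteins of the complex in the series title and a textbook RONIN target gave no promoter peak. MTOR had 1 peak of score 87 within its span (chromosome 1, 11166732 to 11167046), deposited as intronic and assigned to ANGPTL7. PML was 2.13 kb from a peak of score 52 at the STOML1 promoter. MMACHC, a gene of cobalamin processing that depends on RONIN and HCF-1, was 70.3 kb from the nearest peak.

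**Figure D3:**
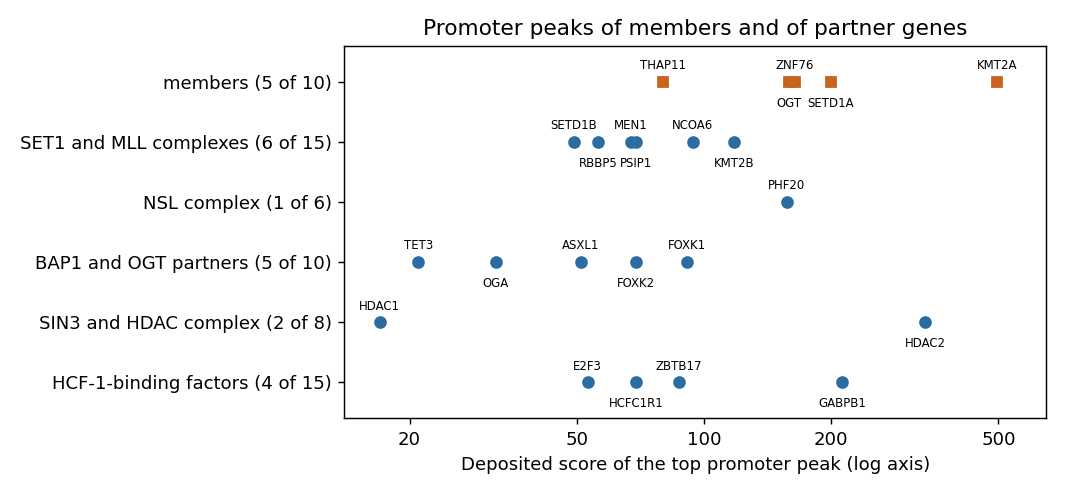
Each point is the top promoter peak of 1 gene by deposited score on a log axis, in rows by complex with the number of genes that had such a peak; squares are the members. KMT2A, at 496, is the right-most point, and HDAC2, at 335, leads the partners.

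Promoter letters of the members were compared with those of all protein-coding genes in the RefSeq table. A peak overlapped the 300-base promoter of 5 of the 7 members present (THAP11, ZNF143, OGT, SETD1A and KMT2A, but not HCFC2 or WDR5), against 14.7% of the 15811 protein-coding genes in that table. ZNF76, HCFC1 and ASH2L were not matched. GC content ran from 57.7% in OGT and 59.3% in ZNF143 to 65.0% in SETD1A, 69.0% in THAP11 and 76.3% in KMT2A. HCFC2, without a peak, had 73.7%, and the 4 promoter entries of WDR5 ran from 51.3 to 82.3%. Promoters with a peak had a median GC content of 65.7% and those without one 61.7%, so the members with and without a peak overlapped in this respect.

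The element shared by RONIN and ZNF143 was searched as ACTACA, any 3 bases and CCCA, on both strands. None of the 7 members held it, and it was rare, in 2.85% of genes. With 1 mismatch allowed it was found in THAP11 alone, at -45 to -33 bp (TGGGGGGCGTAGT, read on the plus strand), against 6.41% of all genes, exact copies included. Its left part ACTACA occurred in OGT at -138 to -133 bp (10.4% of genes), and TCCCAG, its right end with 1 more base on each side that the full search did not require, in OGT, HCFC2 and WDR5 (41.4% of genes).

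Other motifs separated the members little. The ETS core CCGGAAG was in THAP11 (-78 to -72 bp), ZNF143 (-94 to -88 bp) and the first WDR5 promoter, and in 16.5% of genes. In THAP11 it shared a base with a Sp1 match. Sp1 (GGGCGG) was in all 7 members, with or without a peak, and in 64.3% of genes. CCAAT was in ZNF143 and WDR5 (42.1% of genes), the NRF1 core GCATGCGC in OGT (4.89%), YY1 (AAGATGG) in HCFC2 (7.90%) and the E-box CACGTG in HCFC2 and WDR5 (10.9%). TATAAA was in none of them (12.4%). These letters describe the windows and show no binding of any factor.

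Over all genes, however, the element had the highest share of promoters with a peak among the motifs searched. Of 451 genes with it, 186 (41.2%, exact 95% interval 36.7 to 45.9%) had a peak over the promoter, against 13.9% of those without it. The ETS core followed with 25.2% against 12.6%, and ACTACA outside the full element gave 16.7%. The motifs differ in length and occur in 2.85% (the element) to 64.3% (Sp1) of genes, so this ranking compares unlike motifs. Of 562 genes with a 1-mismatch form and no exact copy, as in THAP11, 157 (27.9%, exact 95% interval 24.3 to 31.8%) had a peak. The ZNF143 promoter was covered by a peak and held neither form in the window searched. The MMACHC promoter had no peak, yet it held 1-mismatch forms at -123 to -111, -58 to -46 and -5 to 8 bp.

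**Figure D4:**
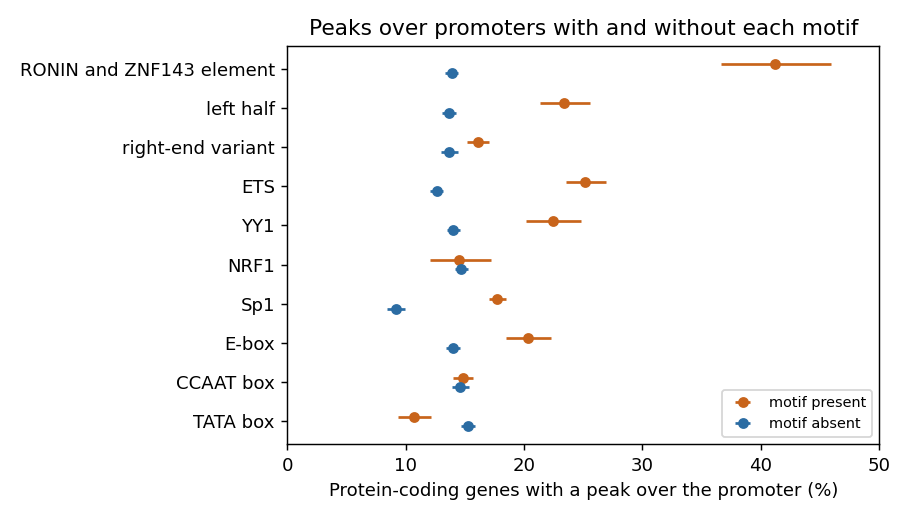
Points give the percent of protein-coding genes with a peak over the 300-base promoter, for genes with (orange) and without (blue) each motif, with exact 95% intervals. The RONIN and ZNF143 element stands at 41.2% and 13.9%, while the points for NRF1 and the CCAAT box nearly coincide.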

How the data were processed

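Chromatin of MDA-MB-231 cells enriched with an mTOR antibody, and input chromatin, were sequenced as paired reads, 1 library each. Per the submitters' processing notes, Trimmomatic 0.36, BWA 0.7.12, Picard 2.0.1, MACS2 2.1.1.20160309 and HOMER 4.11.1 were used on hg38; their settings, including the peak threshold and the treatment of duplicates, are not stated. The deposited table gives 1 row per peak with its position, a whole-number score from the authors of unstated scale, class, signed offset of the centre from a start site and nearest gene. Positions and offsets were used as deposited. Offsets recomputed from RefSeq starts (GRCh38.p14, same assembly) came within 10 bp for 79.0% of the 1753 peaks compared.

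Genes were matched by Entrez identifier. A promoter peak is an assigned peak that overlaps 1 kb either side of the start, from offset and width. Overlap and motif searches were tested on simulated intervals and sequences. No test between groups was possible with 1 library, and no set test was run. All members were named, with each partner gene that had a promoter peak, MMACHC, PML, MTOR and genes adjoining a member's peak. KMT2D, RBBP4 and the genes whose element sites are printed, the highest-scoring ones outside chromosome 8 (whose sequence is not printed), were picked after their values were seen. Members, lists and motifs were chosen with earlier results of these data known. Alternatives were other windows, score thresholds, promoter definitions, repeat-labelled peaks left out and other comparison sets. The protein motif search set out beforehand was not run here. Software was scipy 1.17.1, numpy 2.4.6 and pandas 2.3.3 under Python 3.11.15, with figures by matplotlib 3.10.9.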

Additional observations from a re-analysis of the deposited data

How the results depend on the processing

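The count of 5 members with a promoter peak was the same with the deposited promoter class, windows of 5 kb and of 100 bp, the 10724 higher-scoring peaks and repeat-labelled peaks left out, where 12%, 20.3%, 10.9%, 7.45% and 15.1% of all genes had one. The 5 kb window could add no member, because only these 5 genes were named as nearest gene of any peak. Leaving repeats out could remove none, because none of the 5 peaks had a repeat label. The count was 6, with ZNF143, when a peak near either end of the gene span counted under any assignment (19.2% of all genes). Around the starts of the RefSeq promoter table, an alternative chosen after the data were seen, it was again 5 (15.2% of all genes), with ZNF143 in place of ZNF76, which that table lacks. Only the 2147 top-scoring peaks lowered it, to 2 (KMT2A and SETD1A, 1.58% of all genes), with SETD1A at the lowest score of that set, 200. Members with any peak likewise went from 6 to 2 there, and to 7 with gene spans widened by 10 kb. The share of all genes was not computed for these 2 settings. In the main setting, 67.0% of all protein-coding genes had no peak in their span. The 18 partners became 11 among the 10724 higher-scoring peaks and 2 among the 2147 top-scoring ones, and the 3096 genes overall 1488 and 315. They were 16 with the deposited promoter class, 14 with the 100 bp window and 19 with the 5 kb window. Counting either end of the span gave 21 partners, and the RefSeq promoter table starts gave 17. The members' median score percentile, 86.5 among all peaks, was 87.2 among promoter peaks, 88.2 within chromosomes and 80.2 among peaks of like width. With 1 mismatch, 1 member held the RONIN and ZNF143 element in place of 0. Unknown depth limits every statement on a missing peak. Repeat labels are hidden in the promoter class, so leaving them out removes few promoter peaks.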

Other observations

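The RONIN and ZNF143 element was followed further over all RefSeq promoters, in a look added after the data were seen. Entries were split into 4 classes of GC content. In the lowest (up to 53%), 26 of 61 entries with the element had a peak (42.6%, exact 95% interval 30.0 to 55.9%), against 197 of 5597 without it (3.52%). In the other classes, in rising order, the shares were 36.8%, 40.4% and 42.6% with the element and 11.98%, 16.6% and 14.2% without. The share with the element lay between 36.8 and 42.6% in the 4 classes, while the share without it was lowest in the GC-poorest class. In that class GC content began at 36.3% with the element and at 6.67% without it, so unlike ranges are compared there. Whether GC content accounts for the difference was not tested. The 162 peaks concerned had a median score of 82.5, against 61 for peaks over other promoters. Promoters of neighbouring genes can share a peak and an element, so entries are not independent.

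The sites below are the 4 highest-scoring of those written out and show how the element looks there, in its own orientation, with ACTACA and CCCA in capitals (GRCh38.p14). PPP1R13L encodes iASPP, an inhibitor of p53 (peak score 848), PEMT a phosphatidylethanolamine methyltransferase (805), UCKL1 a uridine-cytidine kinase-like protein (754) and ZCCHC7 an RNA-binding protein of nuclear RNA surveillance (689). Peak centres lay 743, 48, 19.5 and 2.5 bp from the element in that order, and 847, 9, 68.5 and 238.5 bp from the start.

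PPP1R13L, chr19:45405157-45405182, minus strand: gggACTACAagtCCCAaggtgctcga

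PEMT, chr17:17591749-17591774, minus strand: ggaACTACAtttCCCAgaaggccgga

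UCKL1, chr20:63956456-63956481, plus strand: cggACTACAagcCCCAcaaggccgcg

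ZCCHC7, chr9:37120222-37120245, minus strand: aaaACTACAaccCCCAtgaggaca

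Of the 47 partner genes in the promoter table, 16 had a peak over a promoter and 3 held the element. Among all protein-coding genes in that table the shares were 14.7% and 2.85%. The 3 were HCFC1R1, whose product binds HCF-1 and whose promoter had a peak, and KANSL1 and SAP30, which had none.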
